A study of Rattus norvegicus with 32 samples.

Results

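The genes described here were *Vegfa*, the vascular endothelial growth factor A gene, and 9 genes known for their response to low oxygen: *Adm*, *Bnip3*, *Egln1*, *Egln3*, *Hif1a*, *Ndrg1*, *Pdk1*, *P4ha1* and *Ca9*. They were taken by name from the gene symbols of the array, whatever their values. By that rule 8 of the 10 genes were found, with 11 probes, of 26583 gene names and 30367 probes in all. The remaining 2 were measured under another name, *Egln1* under a transcript identifier and *Ca9* under the symbol Car9, which brought the set to 10 genes and 13 probes. These 2 genes are described with the others but are left out of every count of genes past a limit.

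The cells were C6, a rat glioma line that grows in culture and keeps astrocyte-like features. They were grown to confluence and split into 4 groups, each collected at 3 h and at 6 h: untreated cells (Control), cells given 100 nM angiotensin II (AngII), and cells given the same Ang II after 30 minutes with 10 uM of Losartan (AngII+Los) or of PD123319 (AngII+PD123319). Losartan is an antagonist of the AT1 receptor of Ang II, and PD123319 is an antagonist of the AT2 receptor. All groups shared the same serum-containing medium, and there was no group with an antagonist alone. Each of the 8 groups had 4 replicates, each on its own single-dye array, so that 32 arrays lay on 8 slides with 1 array of each group per slide. The replicate number is the number of the slide within its interval, and slide 1 at 3 h and slide 1 at 6 h were different slides. The labels do not say that replicates were separate cultures, so p-values measure only the spread between these samples. Control lay at the first place of every slide, AngII at the second, AngII+Los at the third and AngII+PD123319 at the fourth, so that treatment and place on the slide cannot be told apart.

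The shares of spots well above background ran from 55.9% to 64.7% per array at 3 h and from 64.2% to 79.8% at 6 h, and the number of arrays limits the precision. On slide 2 at 3 h AngII+Los had the lowest share, 57.8%. At 3 h Control had the most spots flagged as outliers on slides 1, 2 and 4, with 561, 792 and 509. The treated arrays of those slides had 303 to 451. At 6 h Control had the most only on slide 2, with 487. The part of these flags in the results was not tested. Of the glial markers, *S100b*, *Vim*, *Nes* and *Cspg4* were well above background on 16 of 16 arrays at each interval, whereas *Gfap*, the astrocyte intermediate filament gene, was so on 0 arrays at 3 h and on 2 at 6 h. The endothelial genes *Pecam1*, *Tek* and *Tie1* and the leukocyte gene *Ptprc* were well above background on 0 arrays, while *Cdh5* was so on 12 of 16 and *Vwf* on 16 of 16 at 3 h. The macrophage-associated genes *Aif1*, *Cd68* and *Itgam* were so on every array, and of the neuronal genes *Snap25* and *Tubb3* were so on 16 of 16 arrays, *Syp* on 1 and *Nefl* on 2 at 3 h.

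In cells with enough oxygen, the prolyl hydroxylases encoded by *Egln1* and *Egln3* modify the HIF-1 alpha protein, the product of *Hif1a*, and mark it for destruction. When oxygen falls the protein persists, pairs with its partner and binds short sequences near its target genes. Among these targets are *Vegfa*, the main growth signal for blood vessels, *Adm*, a vasodilator peptide, *Bnip3*, which acts in mitochondrial turnover, *Pdk1*, which holds pyruvate back from the mitochondria, *P4ha1*, which hydroxylates collagen, *Ndrg1*, a stress-responsive gene, and *Ca9*, a cell surface carbonic anhydrase. *Egln1* and *Egln3* are themselves targets. In gliomas this programme is known for driving vessel growth around poorly supplied tissue. In bulk RNA, fewer cells with a transcript and less of it per cell cannot be told apart. Values are given below as normalised log2 signal, on which a difference of 1 is a doubling, and signals of different probes are not compared with each other.

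*Vegfa* was read by 4 probes, of which 3 are described singly. The sequences of 2 are shown because the result for this gene rests on the probes going the same way. On the rn4 build, the genome build named in the array files, they lie on the plus strand of chromosome 9 at chr9:10528551-10528610 and chr9:10531972-10532031, in the order below. A_64_P099886 lies furthest along the gene, at chr9:10535933-10535992.
A_64_P099891: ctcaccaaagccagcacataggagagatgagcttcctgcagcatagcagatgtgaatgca
A_64_P155983: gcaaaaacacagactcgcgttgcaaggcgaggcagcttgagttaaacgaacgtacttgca
All 4 probes were kept in the tests, and A_64_P155983 was the only one that fell short of the limit for detection, on 1 of 16 arrays at 3 h. No probe of the 10 genes was saturated on any array.

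At 3 h the untreated cells read 6.46, 9.06, 11.00 and 8.95 for *Vegfa* on slides 1 to 4. AngII read 6.49, 7.91, 10.45 and 8.26, AngII+Los 6.08, 6.96, 10.71 and 8.14, and AngII+PD123319 6.55, 7.80, 10.45 and 7.95. Control was the highest array on slides 2, 3 and 4 and lay inside the range of the treated arrays on slide 1. The groups overlapped throughout, because each spanned the whole distance between slides: group means ± SD (n = 4) were 8.87 ± 1.86, 8.28 ± 1.64, 7.97 ± 2.01 and 8.19 ± 1.64 in the same order.

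At 6 h the untreated cells read 6.89, 9.33, 7.49 and 9.13. AngII read 6.77, 8.76, 7.36 and 8.69, AngII+Los 6.88, 8.57, 7.38 and 8.54, and AngII+PD123319 7.04, 8.59, 7.28 and 8.70. Control was again the highest on slides 2, 3 and 4 and inside the treated range on slide 1. The group means ± SD (n = 4) were 8.21 ± 1.21, 7.89 ± 0.99, 7.84 ± 0.85 and 7.90 ± 0.86. Control was thus the highest array for *Vegfa* on 6 of the 8 slides. Of 13336 genes measured on every array, 5.41% had Control highest on 6 or more slides, and the same 5.41% had it lowest on 6 or more.

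**Figure D1:**
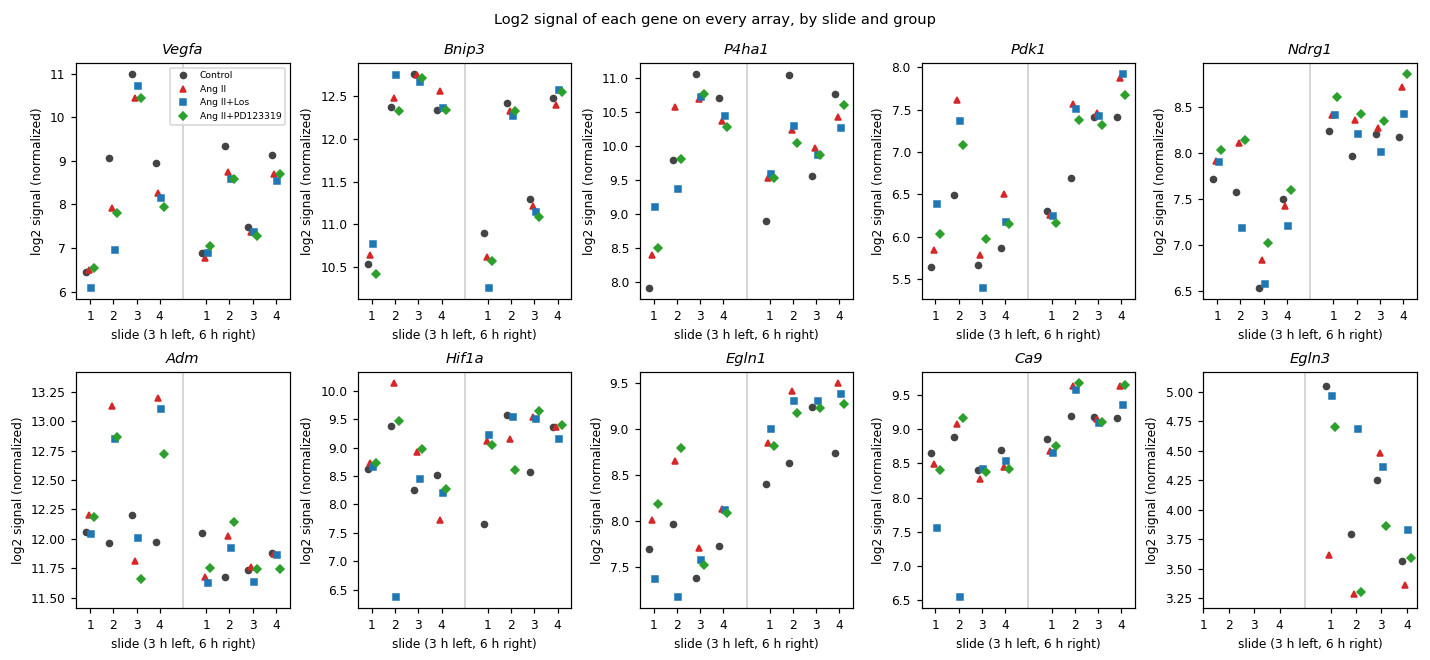
Normalised log2 signal of the 10 genes on every array (y axis, with its own scale per gene) by slide (x axis, slides 1 to 4 at 3 h on the left and at 6 h on the right); marker and colour give the group. The Vegfa slide means range more widely than the group means, although slides 2 and 4 overlap at both intervals, with Control on top on slides 2, 3 and 4 of both intervals; Egln3 has no values at 3 h.

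The comparison AngII x Control asks what Ang II changed while both of its receptors could respond. At 3 h *Vegfa* was lower in AngII, with a difference of -0.59 on the log2 scale and a fold change of 0.664 (SE of the log2 value 0.25, adjusted p = 0.376 by limma over all genes). The differences on the 4 slides were 0.03, -1.16, -0.55 and -0.68, so that 3 of 4 pairs were lower. At 6 h the difference was -0.32, a fold change of 0.803 (SE 0.12, adjusted p = 0.176), and the pairs were -0.12, -0.58, -0.13 and -0.44. All 4 pairs were lower at 6 h, a pattern shared by 14% of the genes tested. The difference passed the unadjusted limit, a p under 0.05, at both intervals and the same limit after adjustment at neither.

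Each of these 3 *Vegfa* probes on its own was lower in AngII at both intervals. At 3 h the differences were -0.71, -0.43 and -0.56 in the order of their positions, and at 6 h they were -0.35, -0.27 and -0.39. The unadjusted limit was passed by A_64_P099891 and A_64_P099886 at both intervals. The probes share their arrays and their gene, though not all are assigned to the same transcript, and are no replicates of each other.

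**Figure D2:**
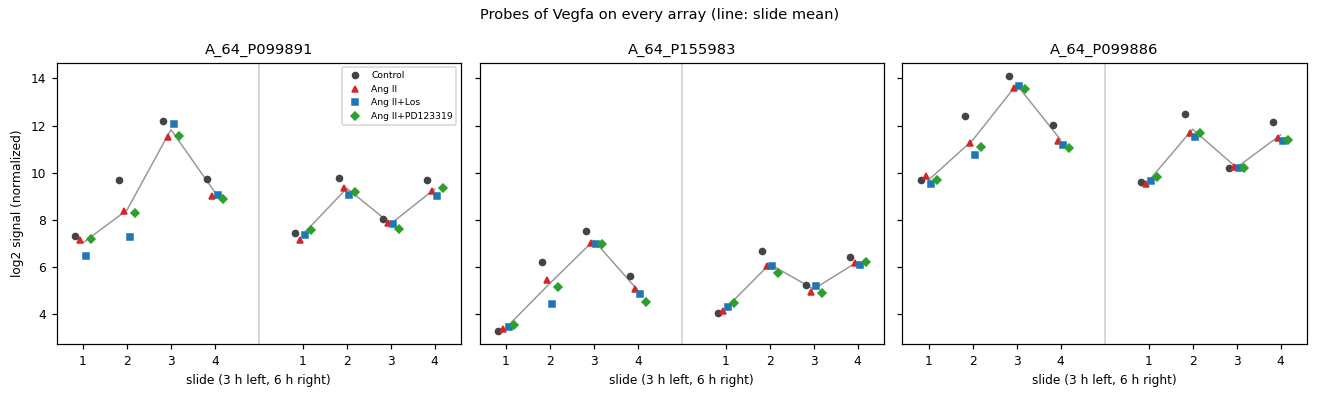
Normalised log2 signal of 3 Vegfa probes (panels, in the order of their positions along the gene) on every array, by slide at 3 h and 6 h; the line joins the slide means. Each probe is lowest on slide 1 and highest on slide 3 at 3 h, and low on slides 1 and 3 at 6 h.

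With either antagonist *Vegfa* did not differ from AngII at the unadjusted limit. AngII+Los x AngII, which sets cells with AT1 blocked against cells with both receptors open, gave -0.30 at 3 h (SE 0.25, adjusted p = 0.551) and -0.05 at 6 h (SE 0.12, adjusted p = 1). AngII+PD123319 x AngII, the same for AT2, gave -0.09 at 3 h (SE 0.25, adjusted p = 1) and 0.01 at 6 h (SE 0.12, adjusted p = 0.994). A p above the limit does not show that the groups were alike.

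Set against the untreated cells, both antagonist groups had less *Vegfa*. With Losartan the difference was -0.89 at 3 h, a fold change of 0.538 (SE 0.25, adjusted p = 0.178), and -0.37 at 6 h, a fold change of 0.774 (SE 0.12, adjusted p = 0.113). With PD123319 it was -0.68 at 3 h, a fold change of 0.624 (SE 0.25, adjusted p = 0.604), and -0.31 at 6 h, a fold change of 0.809 (SE 0.12, adjusted p = 0.165). With Losartan all 4 pairs were lower at both intervals. They were -0.38, -2.10, -0.29 and -0.81 at 3 h, and -0.01, -0.76, -0.11 and -0.59 at 6 h. With PD123319 the pair on slide 1 was higher, by 0.09 at 3 h and 0.15 at 6 h. These comparisons share the Control arrays with AngII x Control, so the 3 differences at an interval are not independent of each other. Without the slide as a block the difference in AngII x Control was past the unadjusted limit at neither interval. Leaving out slide 2 took this difference to -0.40 and -0.23, neither past the limit. It was also not past the limit at 3 h without slide 3 or slide 4, and at 6 h without slide 4. Without slide 1 it stayed past the limit at both intervals, as it did at 6 h without slide 3. Without slide 2 the Losartan difference from Control was -0.50 at 3 h, still past the unadjusted limit, and -0.24 at 6 h, no longer past it. At 6 h it was also not past the limit without slide 4. The PD123319 difference was -0.48 and -0.17 without slide 2, again past the limit only at 3 h. Without slide 4 it was past it at neither interval, at -0.57 and -0.26, and without slide 3 it was not past it at 6 h.

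Of the other VEGF ligands and receptors on a fixed list of 9 genes, 5 were tested at 3 h and 6 at 6 h. In AngII x Control 1 rose and 0 fell at the unadjusted limit at 3 h, where 5.35% of all genes were higher and 7.37% lower, and 0 rose and 1 fell at 6 h, where 10.6% were higher and 10.9% lower. The one that rose was *Pgf*, placental growth factor, with 0.38 (SE 0.15, adjusted p = 0.365), higher in 3 of 4 pairs, and the one that fell was *Vegfc*, the lymphatic growth factor, with -0.27 (SE 0.10, adjusted p = 0.161), lower in 3 of 4 pairs. In AngII+PD123319 x AngII at 3 h the receptor gene *Flt1* was lower, at -0.38 (SE 0.14, adjusted p = 1) and *Flt4* higher by 0.33 (SE 0.15, adjusted p = 1), both in 4 of 4 pairs. Both were dim at 3 h, *Flt1* at 4.04 to 5.53 and *Flt4* at 4.12 to 5.03. They were well above background on 15 and 14 of 16 arrays. At 6 h *Pgf* was higher in that comparison by 0.27 (SE 0.09, adjusted p = 0.64) in 4 of 4 pairs. Of all genes, 2.99% passed the unadjusted limit in either direction in that comparison at 3 h and 6.37% at 6 h.

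*Adm*, the adrenomedullin gene, was the other secreted factor of the set. At 3 h Control read 12.06, 11.96, 12.20 and 11.98 on slides 1 to 4, and AngII read 12.20, 13.12, 11.81 and 13.20. AngII+Los read 12.04, 12.85, 12.01 and 13.10, and AngII+PD123319 12.19, 12.86, 11.66 and 12.72. The untreated arrays lay between 11.96 and 12.20, and the treated arrays were above all of them on slides 2 and 4 and near or below Control on slides 1 and 3. AngII x Control came to 0.53, a fold change of 1.45 (SE 0.24, adjusted p = 0.381), with pairs of 0.15, 1.16, -0.39 and 1.22. Without slide 2 the difference was 0.33 and without slide 4 it was 0.30, and neither passed the limit. Under 17 alternatives the difference stayed above 0 and passed the unadjusted limit in 6. It did not pass with 75th percentile scaling or with quantile normalization.

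At 6 h all 16 *Adm* arrays lay between 11.63 and 12.15, and AngII x Control was 0.00 (group means ± SD of 11.84 ± 0.17 in Control and 11.83 ± 0.15 in AngII, n = 4). The difference between the intervals, tested as 1 contrast, was -0.54 (SE 0.27, adjusted p = 0.694), which missed the limit. It was passed with the other background correction and without replicate 3. Of the 4 listed genes of the adrenomedullin receptor 2 were tested, and *Ramp2*, which encodes a subunit of it, was lower in AngII+PD123319 x AngII at 6 h, at -0.23 (SE 0.10, adjusted p = 0.763) in 4 of 4 pairs.

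*Hif1a* encodes the oxygen-regulated subunit, whose control is mostly on the protein, which was not measured here. Its levels ran from 7.72 to 10.14 at 3 h and from 7.65 to 9.64 at 6 h, apart from 1 array of AngII+Los on slide 2 at 3 h, which read 6.36. On that array *Ca9* (6.54), *Egln1* (7.18), *Vegfa* (6.96), *Ndrg1* (7.19) and *P4ha1* (9.36) were the lowest of their slide too, while *Bnip3* (12.75) was the highest of its slide. AngII x Control was 0.18 at 3 h (SE 0.53, adjusted p = 0.899), and AngII+Los x AngII was -0.96 at 3 h (SE 0.53, adjusted p = 0.431). The latter lay mostly in that 1 array, the pairs being -0.06, -3.78, -0.48 and 0.48. Control at 6 h was 8.79 ± 0.87 and AngII 9.29 ± 0.19 (SD, n = 4). No comparison of *Hif1a* passed the unadjusted limit at either interval.

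*Egln1* encodes the main oxygen-sensing hydroxylase. At 3 h Control read 7.70, 7.98, 7.38 and 7.74 and AngII 8.01, 8.66, 7.71 and 8.14, higher on every slide, with a difference of 0.43 (SE 0.23, adjusted p = 0.431). At 6 h Control read 8.41, 8.63, 9.24 and 8.74, and AngII read 8.85, 9.42 and 9.5 on slides 1, 2 and 4, the spot of slide 3 having been dropped for its outlier flag. AngII x Control at 6 h was 0.57, a fold change of 1.49 (SE 0.11, adjusted p = 0.0679), with pairs of 0.45, 0.79 and 0.76. AngII+Los stood above Control at 6 h by 0.49 (SE 0.11, adjusted p = 0.0518) and AngII+PD123319 by 0.37 (SE 0.11, adjusted p = 0.0896). These comparisons share Control, and none of them passed the adjusted limit. On slide 3 at 6 h Control, at 9.24, lay inside the range of the antagonist arrays, at 9.30 and 9.23.

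In AngII+Los x AngII at 3 h *Egln1* was lower, at -0.57, a fold change of 0.676 (SE 0.23, adjusted p = 0.427). The pairs were -0.64, -1.48, -0.13 and -0.01, of which the second holds the array just named. *Egln3* encodes a related hydroxylase and was well above background on 2 of 16 arrays at 3 h and was not tested there. At 6 h Control read 5.05, 3.79, 4.25 and 3.56 and AngII 3.62, 3.28, 4.48 and 3.36. AngII+Los read 4.96, 4.69, 4.36 and 3.83, and AngII+Los x AngII came to 0.77, a fold change of 1.71 (SE 0.26, adjusted p = 1), with 3 of 4 pairs higher and the groups overlapping.

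Among 17 other factors of the pathway, 12 were tested at 3 h and 14 at 6 h. In AngII x Control 0 passed in either direction at 3 h and 2 of 14 fell at 6 h, where 10.9% of all genes did, namely *Cul2*, a scaffold of the ligase that removes HIF proteins, with -0.51 (SE 0.13, adjusted p = 0.0974), and *Hif3a*, with -0.35 (SE 0.15, adjusted p = 0.211). Both were lower in 4 of 4 pairs, and *Hif3a* was dim, at 3.90 to 4.66 over the arrays at 6 h. *Ep300*, a coactivator gene, was higher in AngII+Los x AngII at 3 h by 0.31 (SE 0.12, adjusted p = 0.427), and *Siah2*, a ligase gene, was lower in AngII+PD123319 x AngII at 6 h, at -0.33 (SE 0.14, adjusted p = 0.737), each in 4 of 4 pairs.

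Of the target genes, *Ndrg1* gave the only difference of the 10 genes that passed the adjusted limit. At 6 h Control read 8.25, 7.97, 8.20 and 8.17 and AngII+PD123319 8.62, 8.42, 8.35 and 8.87, so that these 2 groups did not overlap. The difference was 0.42, a fold change of 1.33 (SE 0.09, adjusted p = 0.0469), with pairs of 0.37, 0.45, 0.15 and 0.69. AngII read 8.41, 8.36, 8.27 and 8.72, and AngII x Control was 0.29, a fold change of 1.22 (SE 0.09, adjusted p = 0.12), also without overlap and higher in 4 of 4 pairs. AngII+Los read 8.42, 8.21, 8.01 and 8.43 and overlapped with both. The AngII x Control difference at 6 h was not past the unadjusted limit without slide 2, without slide 4 or without the slide as a block. Under 15 alternatives it stayed above 0, at 0.21 to 0.37, and passed that limit in 10.

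At 3 h *Ndrg1* in Control read 7.71, 7.58, 6.53 and 7.50. AngII read 7.91, 8.11, 6.83 and 7.43, AngII+Los 7.91, 7.19, 6.57 and 7.20, and AngII+PD123319 8.04, 8.14, 7.02 and 7.59. AngII+PD123319 was the highest array of every slide, and its difference from Control was 0.37, a fold change of 1.29 (SE 0.14, adjusted p = 0.612). AngII+Los x AngII was -0.36, a fold change of 0.782 (SE 0.14, adjusted p = 0.427), and without the AngII+Los array of slide 2 it was -0.21 and no longer past the limit.

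*Pdk1* was higher in AngII at both intervals. At 3 h Control read 5.65, 6.49, 5.67 and 5.87 and AngII 5.85, 7.61, 5.79 and 6.51, a difference of 0.52 and a fold change of 1.43 (SE 0.19, adjusted p = 0.347), with 4 of 4 pairs higher. It was 0.33 without slide 2 and 0.49 without slide 4, neither past the limit. At 6 h Control read 6.31, 6.69, 7.41 and 7.41 and AngII 6.25, 7.57, 7.46 and 7.87, a difference of 0.33 and a fold change of 1.26 (SE 0.14, adjusted p = 0.196). The groups overlapped at both intervals. The 6 h difference lay in slides 2 and 4, with 0.88 and 0.46, against -0.06 and 0.05 on slides 1 and 3, and without slide 2 it was 0.15 and no longer past the limit. AngII+Los, at 6.24, 7.51, 7.42 and 7.92, was above Control at 6 h by 0.32 (SE 0.14, adjusted p = 0.199).

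*Ca9* was above Control on some slides and below it on others. AngII x Control was -0.09 at 3 h (SE 0.38, adjusted p = 0.937). AngII+Los at 3 h read 7.55, 6.54, 8.42 and 8.53 against 8.65, 8.89, 8.41 and 8.70 in Control, a difference of -0.90 and a fold change of 0.536 (SE 0.38, adjusted p = 0.209). It lay in slides 1 and 2, with pairs of -1.10 and -2.35, while the other pairs were 0.01 and -0.17. At 6 h the group means ± SD (n = 4) were 9.10 ± 0.16 in Control and 9.27 ± 0.46 in AngII.

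*P4ha1* did not pass the limit in AngII x Control, with 0.14 at 3 h (SE 0.27, adjusted p = 0.848) and -0.03 at 6 h. Its untreated arrays at 6 h stood apart on every slide. They read 8.89, 11.04, 9.56 and 10.77, whereas AngII read 9.52, 10.23, 9.97 and 10.42, AngII+Los 9.58, 10.28, 9.87 and 10.26, and AngII+PD123319 9.53, 10.03, 9.86 and 10.61. Control was the lowest array on slides 1 and 3 and the highest on slides 2 and 4. The SD over 4 arrays was 1.01 in Control and 0.39, 0.34 and 0.45 in the treated groups. Of the genes at 6 h, 15.9% had Control outside the other 3 arrays on all 4 slides in mixed directions.

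*Bnip3* was close to level among the groups of a slide. At 3 h Control read 10.54, 12.37, 12.76 and 12.33 and AngII 10.64, 12.47, 12.75 and 12.56, a difference of 0.10 (SE 0.10, adjusted p = 0.673). Control at 6 h read 10.89, 12.42, 11.30 and 12.47 and AngII 10.61, 12.33, 11.21 and 12.39. AngII was lower on all 4 slides at 6 h, with pairs from -0.28 to -0.08, and the difference was -0.13 (SE 0.10, adjusted p = 0.448). AngII+Los read 10.25, 12.27, 11.14 and 12.57 at 6 h and was below Control, at -0.21 (SE 0.10, adjusted p = 0.228). The pairs were -0.64, -0.14, -0.16 and 0.10, and without slide 1 the difference was -0.07 and no longer past the limit.

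Counted over the 8 genes found by symbol, of which 7 were tested at 3 h, 3 passed the unadjusted limit in AngII x Control at 3 h. *Adm* and *Pdk1* were higher and *Vegfa* was lower, where 5.35% of 13630 genes passed as higher and 7.37% as lower. At 6 h 3 of 8 passed, *Ndrg1* and *Pdk1* higher and *Vegfa* lower, where 10.6% of 16448 genes were higher and 10.9% lower. In AngII+Los x AngII, *Ndrg1* passed as lower at 3 h (6.03% of all genes) and *Egln3* as higher at 6 h (0.815%). In AngII+PD123319 x AngII 0 of 7 passed at 3 h, where 2.99% of all genes passed in either direction, and 0 of 8 at 6 h, where 6.37% did. In all 6 of these comparisons 0 genes of the whole table passed the adjusted limit by limma.

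Against Control at 3 h, AngII+Los had 1 gene past the unadjusted limit, *Vegfa*, with 11.3% of all genes called lower. AngII+PD123319 had 2, *Vegfa* lower (4.86% of all genes) and *Ndrg1* higher (2.74%). At 6 h AngII+Los had 3, *Vegfa* and *Bnip3* lower (11.4%) and *Pdk1* higher (10.6%), and AngII+PD123319 had 2, *Vegfa* lower (12.1%) and *Ndrg1* higher (10.9%). The adjusted limit was passed by 1.36% and 1.38% of genes in these 6 h comparisons. Of the marker lists *Tubb3* was lower at 6 h in each treated group against Control, at -0.72, -0.75 and -0.83 (each in 3 of 4 pairs), and *S100b* and *Aif1* were higher in AngII+PD123319 x AngII at 6 h, at 0.28 and 0.39. Their part in the results was not tested.

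**Figure D3:**
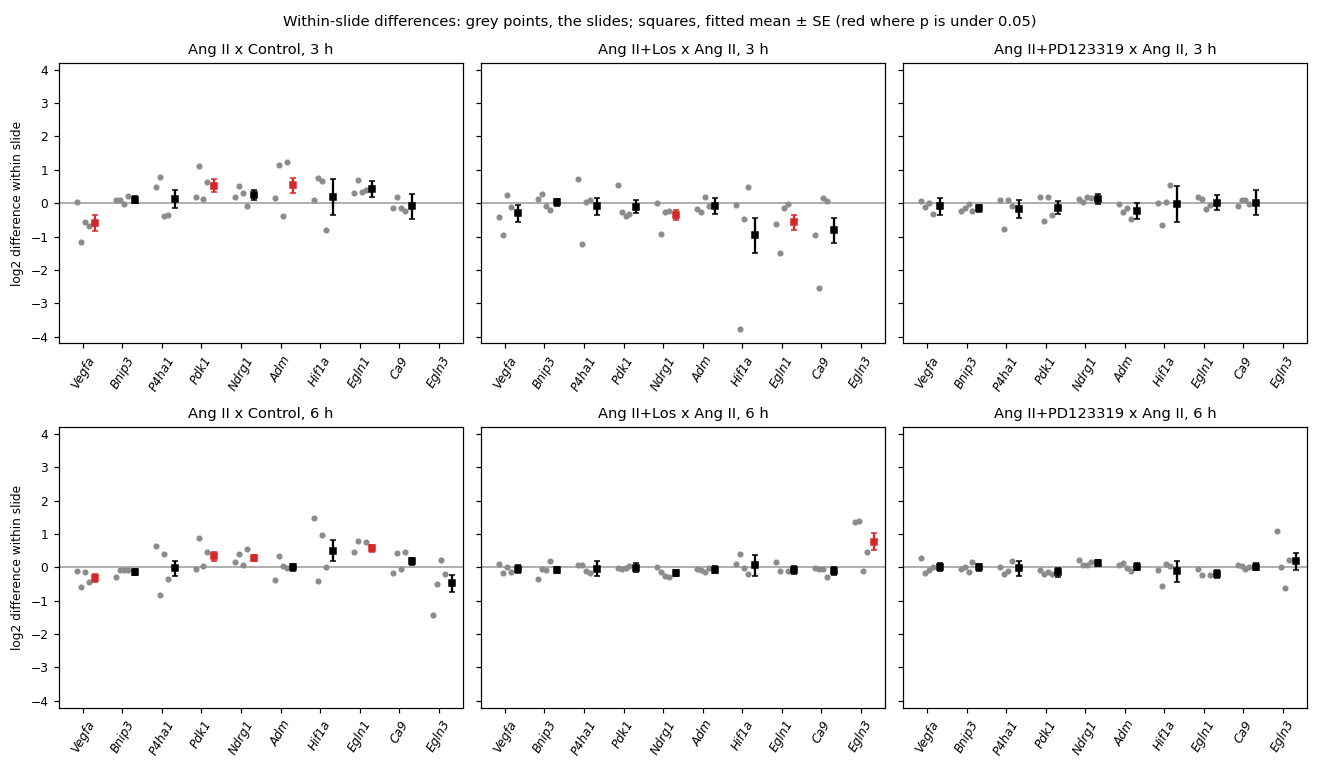
Log2 differences (y axis) of the 10 genes (x axis) in the 3 comparisons at 3 h (top) and 6 h (bottom); grey points are the differences on the single slides, squares with bars the fitted mean ± SE, in red where the unadjusted p was under 0.05. Vegfa lies below 0 in AngII x Control at both intervals and close to 0 in AngII+PD123319 x AngII; red marks for Egln1 belong to a gene found under another name.

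The changes were also compared between the intervals, as a contrast of 6 h minus 3 h over all 32 arrays. In AngII x Control 0 of the 7 genes passed the unadjusted limit, where 7.19% of 13617 genes did. For *Vegfa* this contrast was 0.27 (SE 0.29, adjusted p = 0.838) and for *Ndrg1* it was 0.05 (SE 0.17, adjusted p = 0.959). The counts were also 0 in AngII+Los x AngII (5.02% of all genes) and in AngII+PD123319 x AngII (1.73%).

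For several of these genes the slide had a far larger share of the spread than the group. The slide range is the distance between the highest and the lowest of the 4 slide means at an interval, each over the 4 groups, and it was examined after the values had been seen. *Vegfa* had slide means of 6.39, 7.93, 10.65 and 8.33 at 3 h, a range of 4.26 or 19.2-fold (limma F test between slides, adjusted p = 3.89e-07), against a range of 0.89 between its group means. It ranked 21 of 13630 genes, whose median slide range was 0.66. At 6 h its slide means were 6.90, 8.81, 7.38 and 8.77, a range of 1.92 or 3.78-fold (adjusted p = 2.38e-07), against 0.37 between groups and a median of 0.52 over all genes.

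Differences between slides were common: 63.1% of genes at 3 h and 74.3% at 6 h passed the adjusted limit of that F test. A slide range of 1 or more was found in 28% of genes at 3 h and 16.9% at 6 h, and in 9.12% at both. By symbol, 4 of the 7 genes tested at both intervals had it, *Vegfa*, *Bnip3*, *P4ha1* and *Pdk1*. Slide and replicate culture cannot be told apart. Nor can the scan, between pairs of slides at 3 h and between slide 4 and slides 1 to 3 at 6 h. Within the first scan at 3 h the *Vegfa* means were 6.39 and 7.93, and within the second 10.65 and 8.33.

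*Bnip3* had slide means of 10.59, 12.48, 12.72 and 12.40 at 3 h, a range of 2.13 or 4.38-fold (adjusted p = 3.9e-08), against 0.19 between groups. At 6 h they were 10.58, 12.34, 11.18 and 12.50, a range of 1.92 or 3.77-fold (adjusted p = 6.27e-08), against 0.21 between groups. *P4ha1* had 8.47, 9.88, 10.80 and 10.44 at 3 h (range 2.34, adjusted p = 6.22e-05) and 9.38, 10.40, 9.82 and 10.51 at 6 h (range 1.13, adjusted p = 0.00239). In *Vegfa*, *Bnip3* and *P4ha1* slide 1 was the lowest at both intervals, and slides 1 and 3 were the low ones at 6 h. At 3 h slide 3 was the highest of all 3 genes, but in signal that was not normalised slide 2 was the highest for *Bnip3* (12.99 against 12.30 on slide 3) and *P4ha1* (10.41 against 10.34), and the *P4ha1* range was 1.53.

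Slide 1 was the lowest at both intervals in 3 of 7 genes, these 3, where 20.1% of all genes had that order. *Ca9*, which is outside this count, was also lowest on slide 1 at both intervals, with a range of only 0.25 at 3 h. All 4 arrays of slide 1 lay below the other 12 arrays at both intervals in *Vegfa* and *Bnip3*, as in 3.08% of all genes. The labels do not say that the same number at 3 h and 6 h marks a shared culture. At 3 h slide 3, with the most *Vegfa*, had the lowest mean 75th percentile of signal before normalization, 8.58 against 8.83 to 9.61 on the other slides. At 6 h slide 4 had the highest, 10.00, against 8.92 to 9.31. The part of array brightness in these ranges was not tested beyond the other normalizations, under which slide 1 kept the lowest *Vegfa* mean except at 6 h in signal that was not normalised, where slide 3 was lowest. The *Vegfa* range at 3 h was then 3.33, and with another background correction 3.27.

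The other genes had another order or smaller ranges. *Pdk1* was highest on slide 2 at 3 h, with slide means of 5.98, 7.14, 5.70 and 6.17, and lowest on slide 1 at 6 h, with 6.24, 7.28, 7.40 and 7.72. *Ndrg1* was lowest on slide 3 at 3 h, with 7.89, 7.75, 6.74 and 7.43, the slide on which *Vegfa* was highest, and ranged over 0.34 at 6 h. *Adm* ranged over 0.83 (adjusted p = 0.0172) and 0.22 (adjusted p = 0.28), *Egln1* over 0.60 (adjusted p = 0.128) and 0.49 (adjusted p = 0.005), and *Ca9* over 0.25 (adjusted p = 0.93) and 0.78 (adjusted p = 0.00023). For *Hif1a* the range was 0.66 at 3 h and 0.55 at 6 h, with adjusted p of 0.663 and 0.317.

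**Figure D4:**
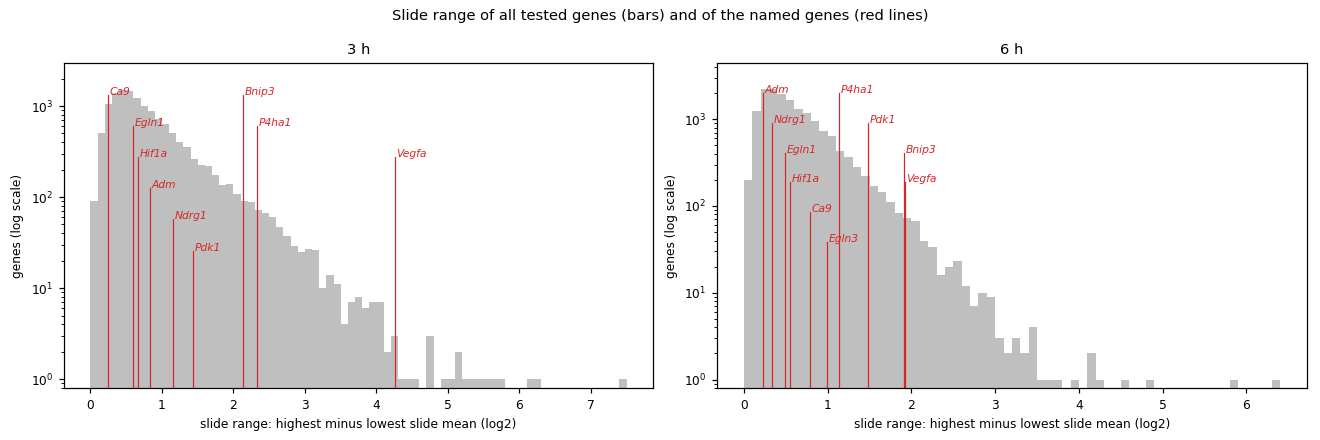
Number of genes (y axis, log scale) by slide range, the highest minus the lowest slide mean on the log2 scale (x axis), at 3 h (left) and 6 h (right); red lines mark the named genes. Vegfa lies in the far tail at 3 h, at 4.26, and Vegfa and Bnip3 share a range of 1.92 at 6 h.

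The promoters of 4 genes are shown because *Vegfa*, *Bnip3* and *P4ha1* were lowest on slide 1 and highest on slide 3 at 3 h, while *Pdk1* was lowest on slide 3. They are the 250 bases before the RefSeq start on the GRCr8 build, and were searched on both strands for ACGTG and GCGTG, the short core that HIF proteins are known to bind. Capitals mark each match, which reads CACGT or CACGC where it lies on the opposite strand. *Vegfa* has 2 starts in the table, and the earlier one is shown. The windows are chr9:22452604-22452853 on the plus strand for *Vegfa*, chr1:203154963-203155212 on the minus strand for *Bnip3*, chr20:27844796-27845045 on the plus strand for *P4ha1* and chr3:77113264-77113513 on the plus strand for *Pdk1*.
Vegfa: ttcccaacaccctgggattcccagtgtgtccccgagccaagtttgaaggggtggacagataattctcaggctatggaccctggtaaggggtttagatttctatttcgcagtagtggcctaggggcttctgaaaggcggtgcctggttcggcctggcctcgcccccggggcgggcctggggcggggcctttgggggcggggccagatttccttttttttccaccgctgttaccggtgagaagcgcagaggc
Bnip3: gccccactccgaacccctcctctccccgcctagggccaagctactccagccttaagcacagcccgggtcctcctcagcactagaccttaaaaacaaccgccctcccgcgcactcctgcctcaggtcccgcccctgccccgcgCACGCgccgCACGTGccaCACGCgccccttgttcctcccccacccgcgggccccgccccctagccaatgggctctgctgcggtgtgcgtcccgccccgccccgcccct
P4ha1: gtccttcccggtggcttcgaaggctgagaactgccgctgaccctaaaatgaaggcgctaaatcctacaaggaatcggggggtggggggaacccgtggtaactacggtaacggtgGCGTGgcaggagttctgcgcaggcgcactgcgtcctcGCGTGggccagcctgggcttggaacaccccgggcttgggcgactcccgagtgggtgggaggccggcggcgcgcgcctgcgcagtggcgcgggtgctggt
Pdk1: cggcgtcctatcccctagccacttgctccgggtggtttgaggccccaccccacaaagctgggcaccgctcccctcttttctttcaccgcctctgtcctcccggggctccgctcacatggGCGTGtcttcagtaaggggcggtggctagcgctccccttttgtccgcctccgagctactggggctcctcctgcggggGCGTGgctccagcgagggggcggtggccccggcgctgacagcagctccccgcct
*Bnip3* held 2 matches of ACGTG, which overlap as both strands of 1 palindrome 99 bases before the start, and 2 of GCGTG, 108 and 90 bases before it. *P4ha1* held 2 of GCGTG, at 136 and 99 bases, and *Pdk1* 2 of GCGTG, at 131 and 54 bases. *Vegfa* held none in either window, which says only that these letters are not in these windows. ACGTG was found in 16.6% of 33469 such windows, GCGTG in 25.9% and either in 36.7%. Of the other genes with an entry, *Hif1a* held 3 of ACGTG and *Egln1* 1 of GCGTG, and *Adm*, *Egln3* and *Ca9* held none. The *Hif1a* matches 229 and 228 bases before the start overlap as both strands of 1 palindrome. *Ndrg1* had no entry. A match is a description of letters and not of binding.

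Other targets of HIF were drawn from fixed lists, 21 genes of metabolism and 32 others. Of the metabolism genes 19 were tested at 3 h, and in AngII x Control 3 were higher and 1 lower, where 12.7% of all genes passed in either direction. The median difference was 0.20 over the list against 0.00 over all genes. *Slc2a1*, the glucose transporter, was lower, at -0.37 (SE 0.11, adjusted p = 0.322), and *Ppp1r3c*, a glycogen regulator, was higher by 1.28 (SE 0.51, adjusted p = 0.365), both in 4 of 4 pairs. The 2 others that were higher were *Ak3l1*, with 2 of 4 pairs, and the lactate dehydrogenase gene *Ldha*, with 3 of 3 pairs.

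Of the 22 other targets tested at 3 h, 1 was higher and 2 were lower, a share close to the 12.7% of all genes. *Ccng2*, a cyclin that slows the cell cycle, was higher by 0.90 (SE 0.28, adjusted p = 0.322). *Igfbp3*, which binds insulin-like growth factors, was lower, at -0.51 (SE 0.15, adjusted p = 0.322), as was *P4ha2*, a partner of *P4ha1* in collagen hydroxylation, at -0.32 (SE 0.11, adjusted p = 0.342). All 3 moved the same way in 4 of 4 pairs.

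At 6 h 21 metabolism genes were tested, and 3 were higher and 1 lower in AngII x Control. *Pfkl*, a phosphofructokinase gene, was higher by 0.41 (SE 0.08, adjusted p = 0.0679), *Gbe1*, the glycogen branching enzyme gene, by 0.37 (SE 0.08, adjusted p = 0.0744) and *Pfkfb4* by 0.29 (SE 0.12, adjusted p = 0.218). *Slc16a3*, which exports lactate, was lower, at -0.31 (SE 0.14, adjusted p = 0.219). Its signal was dim, at 3.01 to 5.11, and well above background on 15 of 16 arrays, and *Pfkfb4* read 4.16 to 4.90. Of 23 other targets 6 were higher and 2 lower, led by *Tfrc*, the transferrin receptor gene, with 0.59 (SE 0.13, adjusted p = 0.0748), and *Insig2*, a sterol regulator, with 0.26 (SE 0.06). *Ccng2* was higher again, by 0.29 (SE 0.09), as was *Bhlhe40* by 0.34 (SE 0.11). The list medians were 0.09 and 0.04 against -0.01 over all genes. Counts of 4 in 21 and 8 in 23 stand beside 21.5% of all genes in either direction.

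In AngII+Los x AngII at 3 h 2 of 19 metabolism genes were lower, *Aldoa* and *Ldha*, at -0.67 (SE 0.28, adjusted p = 0.427) and -0.44 (SE 0.17, adjusted p = 0.427), where 6.03% of all genes were lower, and at 6 h 0 of 21 passed, where 1.99% of all genes did. Of the other targets 1 of 22 was lower at 3 h and 0 of 23 passed at 6 h, and of the other angiogenic factors 0 of 3 passed at 3 h and 1 of 5 was lower at 6 h. In AngII+PD123319 x AngII 0 of 19 metabolism genes passed at 3 h and 2 of 21 at 6 h (1 higher, 1 lower), and of the other targets 1 of 22 was higher at 3 h and 2 of 23 were lower at 6 h. Of the other angiogenic factors 2 of 3 were lower at 3 h, and 1 was higher and 2 were lower of 5 at 6 h. These counts stand beside 2.99% of all genes in either direction at 3 h and 6.37% at 6 h. *Ctgf*, a matrix growth factor on the list of other angiogenic factors, was among those lower in AngII+PD123319 x AngII at both intervals, at -0.66 (SE 0.17, adjusted p = 1) and -0.45 (SE 0.13, adjusted p = 0.527), in 4 of 4 pairs each. The other at 3 h was the fibroblast growth factor gene *Fgf2*, at -0.30 (SE 0.12, adjusted p = 1) in 4 of 4 pairs, and at 6 h *Thbs1*, at -0.42 (SE 0.11, adjusted p = 0.49) in 3 of 4 pairs. None of these passed the adjusted limit, and *Thbs1* was dim at 6 h, at 3.62 to 5.46. Of the 10 angiogenic factors listed, 3 were tested at 3 h and 5 at 6 h, and in AngII x Control *Pdgfa*, a platelet-derived growth factor gene, was higher at 3 h (0.33, SE 0.13, adjusted p = 0.365) and *Thbs1*, which restrains vessel growth, at 6 h (0.29, SE 0.11, adjusted p = 0.184).

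Slide 1 was the lowest at both intervals in 6 of 19 metabolism genes and in 10 of 22 others, beside the 20.1% given above. *Slc2a1* had slide means of 8.54, 10.52, 11.15 and 10.49 at 3 h (range 2.61, adjusted p = 2.36e-08) and of 8.60, 10.43, 9.76 and 10.27 at 6 h (range 1.83, adjusted p = 9.11e-07). *P4ha2* had 8.89, 10.12, 10.28 and 10.09, and then 9.29, 10.39, 9.47 and 10.53. Both were lowest on slide 1 at both intervals and highest on slide 3 at 3 h. Some abundant glycolysis genes moved little between slides, with ranges at 3 h and 6 h of 0.20 and 0.29 for *Gapdh*, 0.24 and 0.45 for *Pgk1* and 0.47 and 0.11 for *Eno1*. The metabolism list had a median range of 0.61 at 3 h and 0.53 at 6 h, against 0.66 and 0.52 over all genes. A range of 1 or more was found in 5 of its 19 genes at 3 h and 4 of 21 at 6 h. The glycolysis gene *Aldoc* had such a range at both intervals, with slide 1 lowest. Large slide ranges were not restricted to these lists: *Vim*, a glial marker, had slide means of 7.25, 8.93, 6.93 and 8.92 at 3 h and of 7.79, 9.51, 9.34 and 9.61 at 6 h.

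**Figure D5:**
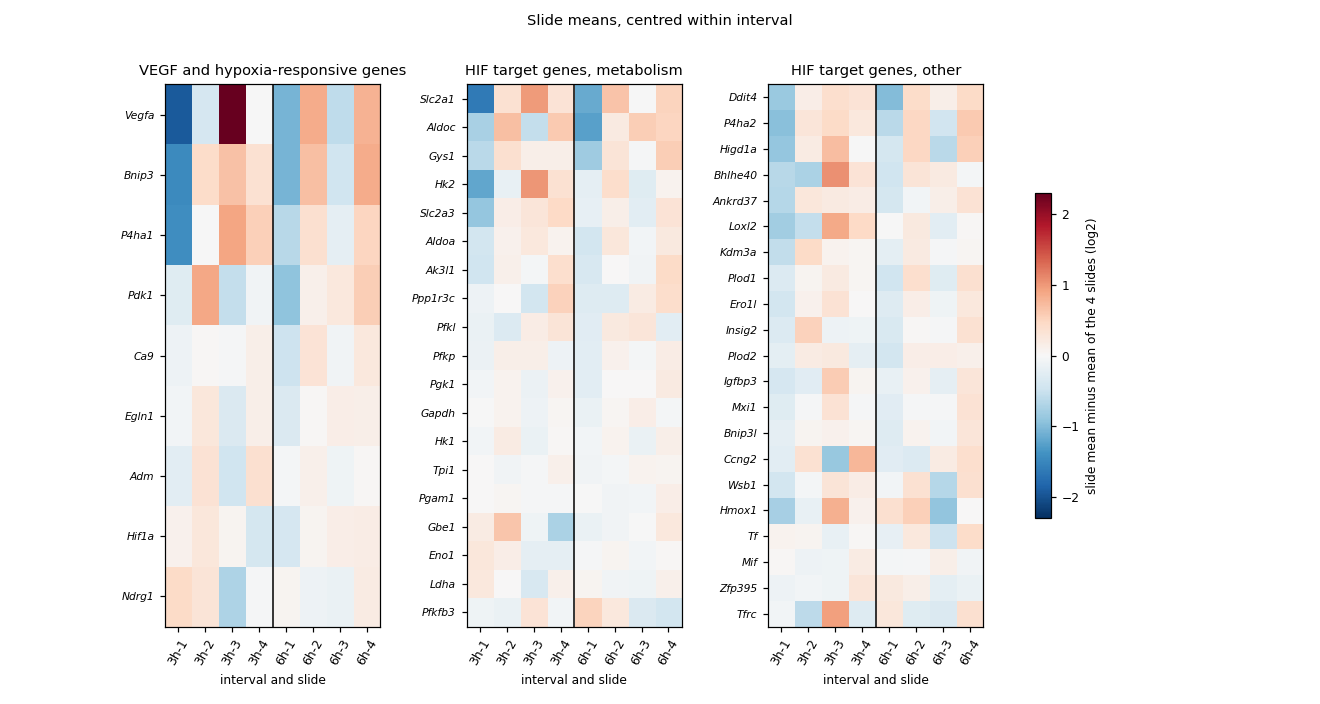
Slide means of each gene minus the mean of the 4 slides of that interval (colour, log2), for the named genes tested at both intervals and all but one of the genes of the HIF target lists (rows), by interval and slide (columns). Vegfa, Bnip3, P4ha1 and Slc2a1 are lowest on slide 1 of both intervals, as is Aldoc, whereas Gapdh, Pgk1 and Eno1 are near 0.

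After the slide mean had been removed from each array, the genes with the pattern most like *Vegfa* over 32 arrays were *Yipf2* (Pearson r = 0.94), *Mknk1* (0.93), *Alg12* (0.93), *Slc7a1* (0.92) and *Mafk* (0.92), of 13617 genes. All 5 were lower in AngII x Control, at -0.76 to -0.39 at 3 h and -0.56 to -0.26 at 6 h, which follows in part from their having been chosen for their likeness to *Vegfa* within slides. Within the set the values of r were -0.71 for *Pdk1*, -0.53 for *Adm*, 0.51 for *Ca9*, 0.44 for *Hif1a*, 0.33 for *P4ha1*, -0.30 for *Bnip3*, -0.06 for *Ndrg1* and -0.01 for *Egln1*. These are descriptions over arrays that share slides and groups. The 5 named genes were picked for the highest r among all genes with a symbol. That the values within the set, up to 0.51, lay below theirs follows largely from that choice.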

How the data were processed

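RNA of C6 cells was labelled with Cy3 and hybridised to Agilent rat arrays. Per the file headers, Agilent Feature Extraction 9.5.3.1 measured each spot's intensity and subtracted its background. The log2 values deposited by the authors are the log2 of this processed intensity with no scaling between arrays (column medians 6.39 to 8.14), and were used as an alternative. The authors' methods name a loess normalization and t-tests, and other versions and amounts than the headers and labels, which do not touch the values used here.

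Spots with an outlier flag were dropped, spots of a probe averaged, and dim spots at 3 h set to their error, as the software had done at 6 h. A probe missing on over 2 arrays was not used. The log2 signal was normalised by cyclic loess (3 iterations, span 0.7) among the 16 arrays of an interval. Probes detected above background on each of the 4 arrays of some group were averaged per gene symbol, which left 13630 genes at 3 h and 16448 at 6 h. Comparisons used limma 3.58.1 in R 4.3.3 over 16 arrays with the slide as a block, 2-sided. A gene was called at an unadjusted p under 0.05, and the Benjamini-Hochberg value over all genes is given beside it ("adjusted p"). The block was kept because same-numbered arrays deviated from their group means together, with correlations from 0.14 to 0.92. In a test on simulated data 80% of genes changed by 0.5 were called at 3 h and 86% at 6 h. These shares are over the whole table, where the median SE in the arrays was 0.16 at 3 h and 0.10 at 6 h. Among the genes described here the SE in AngII x Control at 3 h ran from 0.10 for *Bnip3* to 0.53 for *Hif1a*, with 0.25 for *Vegfa*. The share for these genes was not tested.

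All members by name were reported. One listed gene and the sequence and single values of one *Vegfa* probe are not reported here, though both entered the counts and means. Of each list (VEGF, adrenomedullin receptor, HIF factors, targets, angiogenic factors, markers), genes past the limit with 4 pairs in 1 direction were named, up to 4 per list, and others where a count was small. The genes and lists were chosen with earlier results of these data known. Egln1 and Ca9 were matched by transcript identifier and by the symbol Car9 after the arrays' names had been read. The slide ranges were examined after the values were seen. The alternatives were other normalizations, background correction, filters, tests, the arrays of 1 scan, each replicate left out, and 1 AngII+Los array left out, the last chosen after seeing the data.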

Additional observations from a re-analysis of the deposited data

Results flagged for a closer look

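In 7 of the 75 sets of 4 arrays (1 gene, group and interval each), 1 array stood apart from the other 3 by more than Dixon's limit of 0.829 for the gap over the range. Such a limit is passed by chance in about 5% of independent sets, and the sets here share their slides. All values are log2 signal. *Bnip3* read 10.64 in AngII and 10.42 in AngII+PD123319 on slide 1 at 3 h, and *P4ha1* read 8.38 in AngII on the same slide, each below the other 3 arrays of its group. *Pdk1* (7.09) and *Ca9* (9.17) stood above the rest of AngII+PD123319 on slide 2 at 3 h. At 6 h *Adm* stood above the rest of AngII+PD123319 on slide 2, with 12.15, and *Ca9* below the rest of Control on slide 1, with 8.85. Slides 1 and 2 held all 7 arrays. The slide mean was not removed first, so a difference between slides can pass this limit. *Bnip3* on slide 1 at 3 h also read 10.54 in Control and 10.77 in AngII+Los.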

How the results depend on the processing

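Counts below are of the 8 genes found by symbol at an unadjusted p under 0.05. The share of all genes past the limit was not taken under these alternatives, so no such share stands beside the counts. Without the replicate block the counts fell to 0 in AngII x Control, AngII+Los x AngII and AngII+Los x Control at both intervals and in AngII+PD123319 x Control at 3 h, and to 1 (*Ndrg1*) in AngII+PD123319 x Control at 6 h. The methods' t-test, paired, gave 0 in AngII x Control and AngII+Los x AngII at both intervals and 2 in AngII+PD123319 x AngII at 3 h (*Bnip3*, *Ndrg1*) and at 6 h (*Ndrg1*, *Pdk1*). Unpaired, it gave 0 in AngII x Control at 3 h, 1 (*Ndrg1*) at 6 h, and 0 in AngII+Los x AngII at both. With normexp background correction AngII+Los x AngII at 3 h had 0, AngII+Los x Control at 3 h had 2 (*Adm*, *Vegfa*), the contrast between intervals had 1 (*Adm*, AngII x Control), and 2 of the 5 genes most like *Vegfa* were shared. With 75th percentile scaling AngII+Los x Control at 3 h had 2 (*Adm*, *Vegfa*). With only the 8 arrays compared, AngII+Los x AngII had 0 at 3 h and 2 at 6 h (*Egln3*, *Ndrg1*), and AngII+PD123319 x AngII had 1 at 6 h (*Pdk1*). Within scan 1 AngII x Control at 3 h had 1 (*Pdk1*), within scan 2 AngII+Los x AngII had 0, and within scan 3 AngII x Control at 6 h had 0. Without the AngII+Los array of slide 2, AngII+Los x AngII at 3 h had 0.

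Leaving out 1 replicate at a time, AngII x Control ranged from 0 (without slide 2 or 4) to 3 at 3 h, and from 0 (without slide 4) to 4 at 6 h, with 1 (*Hif1a*) without slide 2. AngII+Los x AngII ranged from 0 to 1 at both intervals, at 0 without slide 2 or 3 at 3 h and without slide 2 at 6 h, and AngII+PD123319 x AngII had 0 throughout. AngII+Los x Control ranged from 1 to 3 at both, with 3 at 3 h without slide 3 and 1 at 6 h without slide 2 or 4, and AngII+PD123319 x Control from 1 to 2 at both, with 1 without slide 4 at 3 h and without slide 3 or 4 at 6 h. The contrast between intervals ranged from 0 to 1, being 1 without slide 2 (*Hif1a*) or slide 3 (*Adm*), and the likeness to *Vegfa* kept 2 to 4 of the 5 genes. The cause of these changes was not tested. No called difference changed sign. *Vegfa* in AngII x Control stayed below 0 under 21 alternatives at 3 h (-0.80 to -0.40, past the limit in 12) and under 19 at 6 h (-0.39 to -0.23, past it in 12), and *Ndrg1* in AngII+PD123319 x Control at 6 h passed it in 8 of 8.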
